A study of Arabidopsis thaliana with 21 samples.

Results

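The transcripts of the Arabidopsis mitochondrial genome were followed in embryos that carried mutations in the trihelix DNA-binding proteins ASIL1 and ASIL2. Every gene model whose locus name starts with ATMG and that held at least 10 counts in at least 3 libraries was taken, which gave 92 of the 93 mitochondrial models listed, of 26496 models in all. The remaining one, ATMG00990, never held more than 9 counts. The members nearest the limit were ATMG01110, with 10 or more counts in 3 libraries, and ATMG01030, with 5 such libraries. Each of the 92 was kept by the filter on low counts, among 18269 tested models.

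RNA came from late heart stage embryos dissected by hand, in 21 libraries of 7 genotypes with 3 biological replicates each. The accession Columbia-0 supplied the wild type Col-0, the mutants asil1-1 and asil2-1 and their combination asil1-1 asil2-1. Landsberg erecta supplied the wild type Ler and the mutant asil2-2. The second combination, asil1-1 asil2-2, is labelled as a mixture of both accessions. All groups share the same growth and dissection protocol, no transgene is named, and no label states the direction of any cross. The comparisons ask which transcripts differ from the matching wild type when ASIL1, ASIL2 or both are mutated.

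Plant mitochondria keep a small genome of their own. It is known to encode subunits of the respiratory complexes and of ATP synthase, proteins that attach haem to cytochrome c, ribosomal proteins and many open reading frames without a known role. Nuclear-encoded RNA polymerases of the phage type transcribe it, and nuclear-encoded nucleases trim and remove the RNA. The order and content of the mitochondrial genome vary between Arabidopsis accessions, and mitochondria are usually passed on by the seed parent. In Columbia a large stretch of mitochondrial DNA has also been inserted into chromosome 2.

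That insertion bears on what the counts mean, because a read from a mitochondrial transcript can match it. In the RefSeq annotation of TAIR10.1, the notes of chromosome 2 genes named a mitochondrial locus as their nearest relative, and 31 of the 92 members were named in this way. Other members are given by locus name only, since the sources used here do not pair them with gene names. Of the 31, 18 had a chromosome 2 copy listed in the libraries, and in 11 of these pairs the copy held more counts than the member. The share of a pair's counts on the copy ran from 0.0685% for ATMG01090 to 98.3% for ATMG01110. The sequences of 3 copies are shown because ATMG00370 and ATMG00910 held counts almost solely in Ler and asil2-2, and because the copy of ATMG01190 held far more counts than the member. They are read 5′ to 3′ on the strand of the chromosome 2 gene from RefSeq TAIR10.1, while the counts were made on TAIR10. Capitals mark the base at which a chromosome 2 gene and its mitochondrial match differ.
AT2G07739, the copy of ATMG00370 (chr2:3496279-3496398, minus strand, the first 120 bases): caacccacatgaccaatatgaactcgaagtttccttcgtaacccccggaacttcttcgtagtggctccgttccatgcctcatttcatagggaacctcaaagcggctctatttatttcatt
AT2G07773, the copy of ATMG00910 (chr2:3240980-3241060, minus strand): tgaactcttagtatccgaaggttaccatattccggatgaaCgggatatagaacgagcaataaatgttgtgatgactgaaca
Mitochondrial match of AT2G07773 (MT:307701-307781, plus strand): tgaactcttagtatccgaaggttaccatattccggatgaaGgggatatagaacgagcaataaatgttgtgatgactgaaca
AT2G07698, the copy of ATMG01190 (chr2:3361888-3361968, plus strand): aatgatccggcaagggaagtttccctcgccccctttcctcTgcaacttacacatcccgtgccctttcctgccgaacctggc
Mitochondrial match of AT2G07698 (MT:69158-69238, minus strand): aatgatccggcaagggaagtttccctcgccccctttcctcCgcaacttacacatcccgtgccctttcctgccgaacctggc
AT2G07739 and its mitochondrial match did not differ at any of 888 positions. AT2G07773 differed from its match at 1 of 1770 positions, and AT2G07698 at 1 of 2665. No source used here states how reads with several matches were counted, so a member and its copy on chromosome 2 cannot be fully told apart by their counts.

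Library totals lay between 1.49 M and 8.19 M counts (M stands for 1000000). The 92 members held between 90865 and 490716 counts, which is 2.94% to 6.12% of a library, and the widest Wilson 95% interval of such a share was 0.0771 percentage points, which covers counting error only. ASIL1 lay between 1.28 and 5.75 counts per M counts (CPM, scaled by TMM) in the 9 libraries that carry asil1-1 and between 32.4 and 67.8 in the other 12. ASIL2 lay at or under 13.5 CPM in the 6 libraries with asil2-2 and between 37.6 and 61.5 in the other 15, those with asil2-1 included. All 12 embryo markers were detected in every genotype, with summed levels of 411 to 860 CPM. Markers of the surrounding tissues were also present, with summed levels of 60.8 to 170 CPM for the 8 endosperm markers and 146 to 393 CPM for the 8 seed coat markers. AT1G55600 was at 0 in asil2-1 and AT3G19700 at 0 in Ler, both endosperm markers. Replicate 1 of asil1-1 asil2-1 stood apart. The locus AT5G18610 took 45.7% of its counts, against at most 1.91% elsewhere, and 44 of the 92 members had their highest level of all 21 libraries there and 25 their lowest. Replicate 2 of asil1-1 asil2-2 was the shallowest and held the lowest level of 29 members. Results are therefore given with all libraries and, where they change, without both of these.

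The share of counts on the mitochondrial genome was 4.98%, 4.87% and 4.78% in the Col-0 replicates and 5.75%, 5.60% and 5.53% in Ler. In asil1-1 it was 5.61%, 5.39% and 5.34%, above every Col-0 library. In asil2-1 it was 4.94%, 5.27% and 4.67%, which spans the Col-0 values. The asil2-2 replicates, at 5.99%, 5.37% and 5.59%, overlapped Ler. The asil1-1 asil2-1 replicates held 2.94%, 4.73% and 4.58%. With AT5G18610 left out of the total they held 5.41%, 4.76% and 4.61%, so the low first value of the whole share went with that 1 locus. In the same order, the model ATMG00030 alone made up 67.3%, 55.9% and 58.5% of the members' counts. The 5.41% thus rested on ATMG00030 more than the values of the other replicates did. The asil1-1 asil2-2 replicates lay at 5.56%, 6.12% and 4.86%, and the middle one is the shallow library. In these bulk samples a lower share of cells rich in mitochondria and less mitochondrial RNA per cell cannot be told apart.

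**Figure D1:**
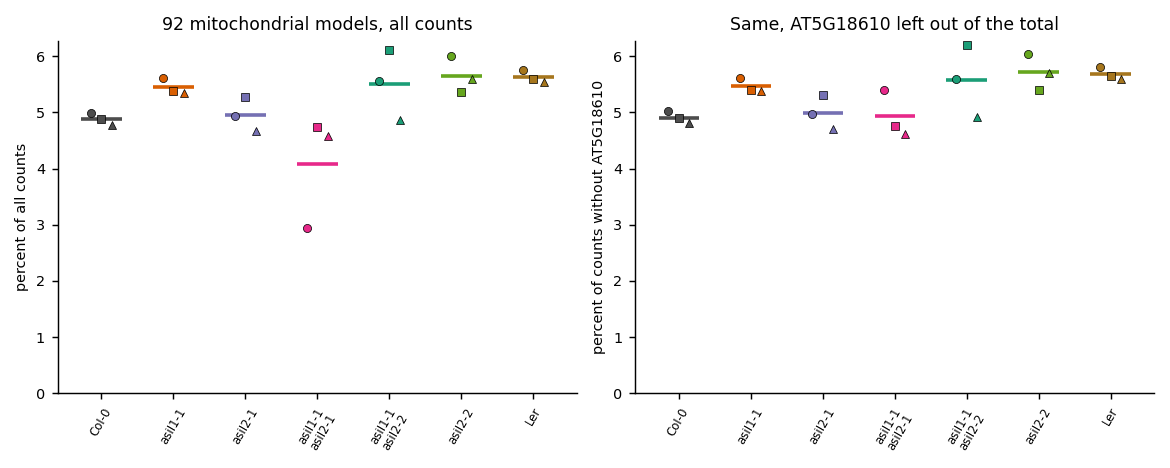
Share of all counts on the 92 mitochondrial models in each library (left, percent of all counts) and with AT5G18610 left out of the total (right), by genotype. Circles, squares and triangles are replicates 1, 2 and 3 and bars are group means of 3 libraries. The asil1-1, asil2-2 and Ler libraries lie above the Col-0 libraries, and the lone low point, 2.94%, rises to 5.41% without AT5G18610.

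A single model dominated these shares. ATMG00030 held 49.7% to 67.3% of the members' counts in each library, at 24154 to 37927 CPM, and the 10 most abundant members together held 81.7% to 88.7%. The next were ATMG01360 with a mean of 3463 CPM, ATMG00090 with 3032 CPM, ATMG00510 with 1856 CPM and ATMG00580 with 1820 CPM over all libraries. These are counts per model and not levels per length, since the lengths of the models are not given in the files, so they do not rank the amounts of RNA molecules. For ATMG00030 itself the log2 fold change was 0.20 ± 0.17 (SE) between Ler and Col-0 and 0.09 ± 0.17 between asil1-1 and Col-0.

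Among members named as parts of known complexes, 4 are described first, and others that differed between genotypes follow further on. ATMG01080, the subunit of ATP synthase that forms its rotating membrane ring (subunit 9), lay at 850, 991 and 889 CPM in Col-0 and at 875, 1012 and 1073 CPM in Ler. In asil1-1 asil2-1 it lay at 2101, 1078 and 1066 CPM, so that the high value was that of the library that stood apart. ATMG00730, a core subunit of cytochrome c oxidase (subunit 3), lay between 568 and 838 CPM in 20 libraries and at 338 CPM in that same library. Its chromosome 2 copy, AT2G07687, lay at 1059 CPM there, and the sum over both, 1397 CPM, was the highest of any library. ATMG00180, named as a cytochrome c biogenesis protein, lay between 261 and 596 CPM over all libraries. ATMG01190, subunit 1 of ATP synthase and part of its soluble head, lay between 30.9 and 62.5 CPM in 20 libraries and at 13.3 CPM in replicate 1 of asil1-1 asil2-1. None of these 4 passed the test in any of the 7 comparisons (edgeR's quasi-likelihood test, Benjamini-Hochberg adjusted p under 0.05). The chromosome 2 copy of ATMG01080, AT2G07671, did, at 226 to 245 CPM in Ler against 330 to 350 CPM in Col-0 (log2 fold change -0.52 ± 0.13, adjusted p = 0.019) and at 325 to 486 CPM in asil1-1 asil2-2 (log2 fold change 0.78 ± 0.13 against Ler, adjusted p = 0.0011). Summed over both copies, the levels of the Ler and Col-0 libraries overlapped, at 1120 to 1318 CPM and 1198 to 1341 CPM.

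Over all 92, the highest and lowest genotype means lay within 1 log2 unit of each other for 53 members, and for 72 once both libraries that stood apart were left out. Of the 38 members with a mean log2 level above that of 50 CPM, 34 stayed within 1 log2 unit. At the other end, 6 members differed by more than 3 log2 units between genotypes. They were ATMG01170, ATMG00040, ATMG01090, ATMG01180, ATMG00910 and ATMG00370, and in all 6 the libraries divided in the same way, with Ler and asil2-2 on 1 side and the other 5 genotypes on the other. ATMG00370 and ATMG00910 held 10 or more counts only in the 6 libraries of Ler and asil2-2. ATMG00040, ATMG01090 and ATMG01180 did so only in the other genotypes, in 15, 15 and 11 libraries. All but ATMG01170 thus met the rule for members only where they were high. Their calls describe the division and give no independent support for it.

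ATMG01170 was the most abundant of the 6. Its level was 385, 363 and 357 CPM in Col-0 and 30.6, 25.2 and 32.7 CPM in Ler. The asil2-2 libraries, at 30.1, 31.7 and 30.5 CPM, lay among those of Ler. The asil1-1 asil2-2 libraries, at 412, 302 and 285 CPM, lay with Col-0, although this double mutant carries asil2-2 in a mixed background. Across all libraries the 6 of Ler and asil2-2 reached at most 32.7 CPM and the other 15 lay no lower than 285 CPM, so the groups were far apart. The level was 12.5-fold lower in Ler than in Col-0 (log2 fold change -3.64 ± 0.15 SE, adjusted p = 9.02e-13) and 11.3-fold higher in asil1-1 asil2-2 than in Ler (log2 fold change 3.50 ± 0.15, adjusted p = 1.94e-12).

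For ATMG00040, ATMG01090 and ATMG01180, counts were at or near 0 in Ler. ATMG00040 held 123, 129 and 91 counts in the Col-0 libraries and 0, 0 and 1 in those of Ler. That is a ratio of 360 between Col-0 and Ler, with an exact 95% interval of 64.2 to 14257 for counting error. In asil2-2 it held 3, 3 and 1 counts, and in asil1-1 asil2-2 138, 25 and 111, a ratio of 323 to Ler with an interval of 57.5 to 12813. Both differences passed the test, with adjusted p = 1.47e-08 for Ler against Col-0 and 6.10e-08 for asil1-1 asil2-2 against Ler.

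ATMG01090, noted as an ATP synthase subunit 9 relative, held 83, 72 and 74 counts in Col-0 and 0 in each Ler and each asil2-2 library. Against a floor of 3 counts over the group, its level was at least 80.1-fold higher in Col-0 than in Ler (adjusted p = 8.23e-08). In asil1-1 asil2-2 it held 148, 37 and 80 counts, at least 104-fold above Ler (adjusted p = 6.10e-08). Its chromosome 2 copy, AT2G07777, held 1 count in all 21 libraries. Since the treatment of reads with several matches is not stated, this does not show from which copy the reads arose. A count of 0 in a library of Ler or asil2-2 still allows a level of 0.358 to 0.600 CPM.

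ATMG01180, noted as an unknown protein, was scarce everywhere. It held 12, 20 and 21 counts in Col-0 and 0 in each Ler library, a level at least 18.5-fold higher in Col-0 (adjusted p = 0.00188). In asil1-1 asil2-2 it held 4, 3 and 10 counts, at least 6.68-fold above Ler (adjusted p = 0.0385). The last call was lost when any 1 of the Ler libraries, or replicate 2 or 3 of asil1-1 asil2-2, was left out, with adjusted p up to 0.133.

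The opposite pattern was held by ATMG00910 and ATMG00370. ATMG00910, noted as an unknown protein, held 45, 26 and 44 counts in Ler, 75, 79 and 57 in asil2-2 and 0 in each Col-0 and each asil1-1 asil2-2 library. A lone count appeared among all other libraries, in asil1-1 replicate 2. Its level was at least 36.5-fold higher in Ler than in Col-0 (adjusted p = 0.000161) and at least 32.5-fold higher in Ler than in asil1-1 asil2-2 (adjusted p = 0.000512).

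ATMG00370, noted as a Ycf1 protein, held 36, 35 and 19 counts in Ler, 27, 27 and 21 in asil2-2, and 0 in each Col-0 and asil1-1 asil2-2 library. Its level was at least 28.6-fold higher in Ler than in Col-0 (adjusted p = 0.00161) and at least 25.4-fold higher in Ler than in asil1-1 asil2-2 (adjusted p = 0.0044). Only 2 counts were found in the other 15 libraries, both in asil1-1 replicate 1.

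The chromosome 2 copies were examined beside these members. For ATMG00370 the difference was in which copy the counts fell on. AT2G07739, the copy of ATMG00370 shown above, held 27, 46 and 28 counts in Col-0 and 0 in each Ler and each asil2-2 library, so it was at least 35.3-fold higher in Col-0. Where one of the pair held counts the other was at or near 0, in all 21 libraries. When both were summed, the log2 fold change of Ler against Col-0 went from strongly positive to -0.21 (adjusted p = 0.905), and the call between asil1-1 asil2-2 and Ler was also lost (log2 fold change -0.25, adjusted p = 0.805). The pair as a whole was therefore not called, whereas each copy alone was.

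ATMG00910 behaved otherwise. Its copy AT2G07773 held 116, 98 and 96 counts in Col-0 and 139, 130 and 125 in Ler, and did not pass the test on its own (log2 fold change 0.26 ± 0.17, adjusted p = 0.561). Summed, the pair was still higher in Ler, by a log2 fold change of 0.62 (adjusted p = 0.0245), in place of the far larger value for the member alone. Another chromosome 2 gene, AT2G07681, matches MT:305596-310433, which spans the match of AT2G07773 at MT:306498-308267. AT2G07681 held 5158 counts over all libraries and was not part of the sum. The sum therefore does not cover every nuclear match of this sequence.

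ATMG01180 showed a further arrangement. Its copy AT2G07667 held 67, 62 and 48 counts in Col-0 and 0 in each Ler and each asil2-2 library, so both the member and its copy were at or near 0 in the same 6 libraries. The copy was at least 61.9-fold higher in Col-0 than in Ler. In asil1-1 asil2-2 the copy held 56, 11 and 51 counts.

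**Figure D2:**
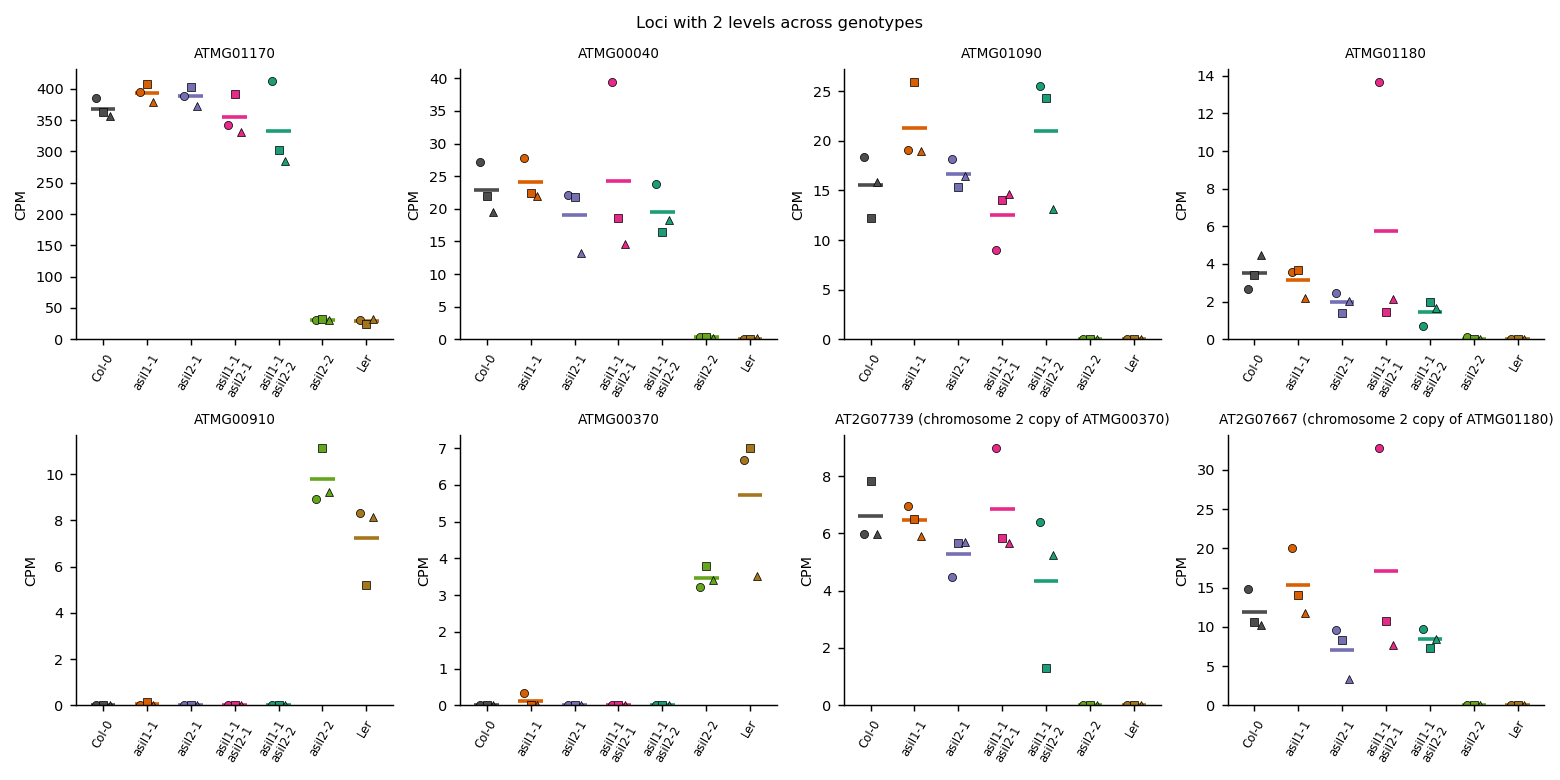
Level in CPM (y axes, each from 0) of the 6 mitochondrial models that differ most between genotypes and of 2 chromosome 2 copies, by library and genotype, with replicates 1, 2 and 3 as circles, squares and triangles and bars for group means of 3 libraries. Ler and asil2-2 stand apart from the other 5 genotypes in every panel, and ATMG00370 holds counts in the libraries in which AT2G07739 holds none.

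Between the wild types, 10 of the 92 members were called, 5 higher in Ler and 5 lower, and 4.96% of all tested models were called. The 10 include the members that met the rule only where they were high. The 38 members whose 3 Ler and 3 Col-0 libraries did not overlap, 22 higher and 16 lower, are 41.3% of the members, beside 30.4% of all models. The median log2 fold change of the members was 0.00 and that of all models was -0.01. With both libraries that stood apart left out, which are in neither wild type and act through the shared estimate of spread, 22 members were called, 13 higher and 9 lower, with 12.8% of all models called.

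Besides the 6 already described, 4 members were called between the wild types at ordinary levels. ATMG00090 lay at 2435, 2429 and 2568 CPM in Col-0 and at 4842, 4200 and 4352 CPM in Ler, with no overlap. It was 1.80-fold higher in Ler (log2 fold change 0.85 ± 0.18, adjusted p = 0.00487). The asil2-2 libraries, at 4780, 4842 and 4650 CPM, lay with Ler, and those of asil1-1 asil2-2, at 2683, 2028 and 2827 CPM, with Col-0. The difference between asil1-1 asil2-2 and Ler passed the test (log2 fold change -0.83 ± 0.18, adjusted p = 0.0111), but not without replicate 2 of asil1-1 asil2-2 or without replicate 1 of Ler.

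ATMG00630 was the only one of these 4 that was lower in Ler, at 12.4, 8.40 and 11.5 CPM against 23.2, 18.1 and 25.5 CPM in Col-0. The fall was 2.06-fold (log2 fold change -1.04 ± 0.24, adjusted p = 0.0088), and it was lost without Col-0 replicate 3 or Ler replicate 2. The asil2-2 libraries again lay with Ler, at 11.3, 14.1 and 7.95 CPM, and those of asil1-1 asil2-2 with Col-0, at 24.5, 20.4 and 18.1 CPM (log2 fold change 0.96 ± 0.24 against Ler, adjusted p = 0.0306). The latter call was lost when any 1 library of either group but replicate 3 of asil1-1 asil2-2 was left out.

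ATMG01360 did not follow that division. It lay at 2791, 2933 and 2557 CPM in Col-0, at 4134, 4831 and 4975 CPM in Ler and at 4671, 3841 and 3709 CPM in asil2-2. In asil1-1 asil2-2 it lay at 4706, 5500 and 3475 CPM, above every Col-0 library and across the range of Ler. It was 1.68-fold higher in Ler than in Col-0 (log2 fold change 0.75 ± 0.21, adjusted p = 0.0387), a call lost when any 1 library of either wild type was left out. For asil1-1 asil2-2 the log2 fold change was 0.72 ± 0.21 against Col-0 (adjusted p = 0.0746) and -0.03 ± 0.21 against Ler (adjusted p = 0.969). Without both libraries that stood apart the first passed the test, at 0.58 (adjusted p = 0.00735).

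ATMG00270 lay at 375, 413 and 373 CPM in Col-0 and at 538, 558 and 627 CPM in Ler (log2 fold change 0.57 ± 0.13, adjusted p = 0.00775), a call lost without Col-0 replicate 3 or Ler replicate 3. The asil1-1 asil2-2 libraries, at 475, 503 and 362 CPM, reached from below the Col-0 values to near those of Ler, and differed from neither wild type by the test (adjusted p = 0.494 against Col-0 and 0.137 against Ler).

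**Figure D3:**
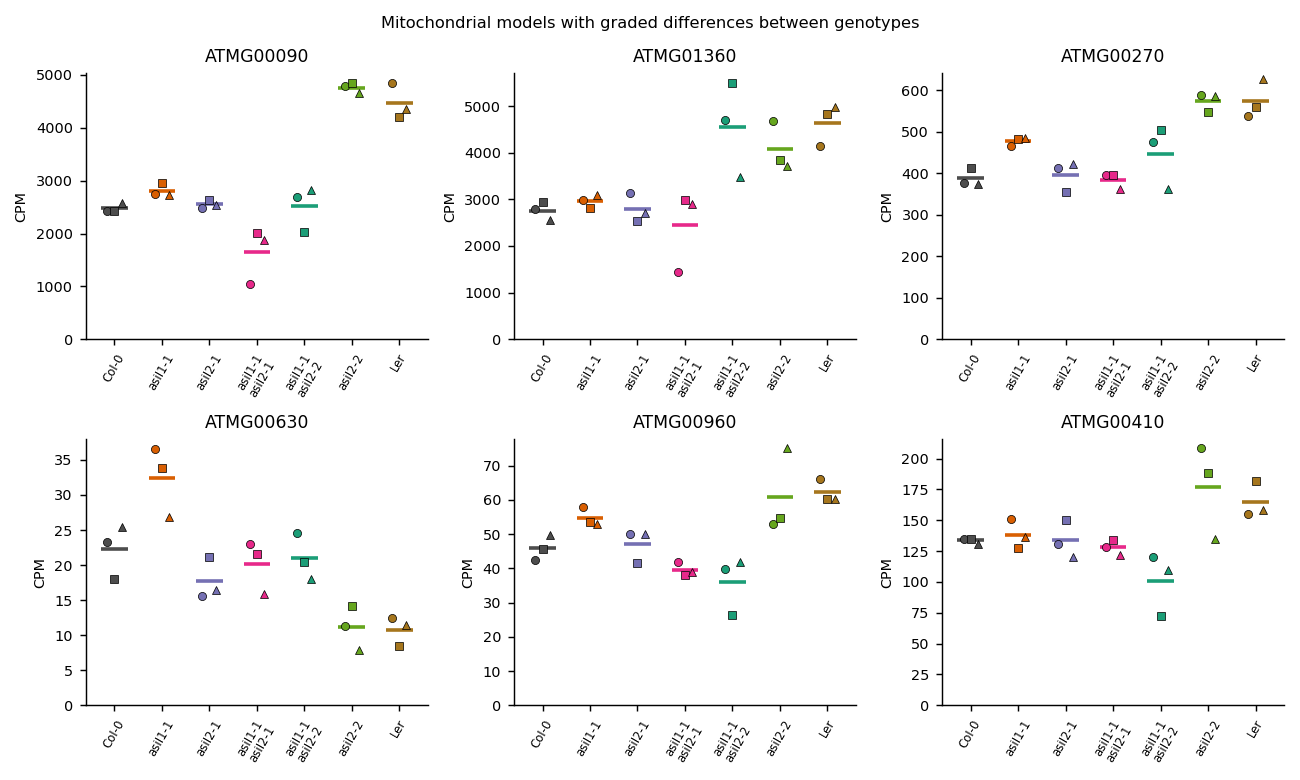
Level in CPM (y axes, each from 0) of 6 members with graded differences, by library and genotype, with replicates 1, 2 and 3 as circles, squares and triangles and bars for group means of 3 libraries. In ATMG00090 and ATMG00630 the asil1-1 asil2-2 libraries lie with Col-0, and in ATMG01360 they reach 5500 CPM and lie above every Col-0 library.

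Ler embryos also differed from those of Col-0 in their surrounding-tissue markers. The summed endosperm markers lay at 60.8 to 91.6 CPM in Ler and at 92.03 to 115 CPM in Col-0, with FWA called lower in Ler. Of the 5 endosperm markers tested, 1 was higher in Ler, with a median of -0.55 log2 units. The summed seed coat markers overlapped, at 189 to 251 CPM and 205 to 266 CPM, with TT10 called lower and AT2G47670 higher. Yet 6 of the 8 seed coat markers were higher in Ler, with a median of 0.39. The part of the markers of either tissue in the mitochondrial differences was not tested.

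The asil1-1 asil2-2 embryos were compared with both wild types. Against Ler, 10 of the 92 members were called, 5 higher and 5 lower, and 2.9% of all tested models. They were the 6 members with separate levels, ATMG00090, ATMG00630 and 2 members with annotated roles in respiration. Of those 6, all but ATMG01170 met the rule for members only where they were high. ATMG00960, named as a cytochrome c assembly protein, lay at 39.9, 26.3 and 41.8 CPM against 66.2, 60.2 and 60.3 CPM in Ler (log2 fold change -0.75 ± 0.16, adjusted p = 0.0105), and the call was lost without Ler replicate 1. ATMG00410, named as subunit 6-1 of ATP synthase, part of its proton channel, lay at 120, 72.4 and 110 CPM against 155, 182 and 159 CPM (log2 fold change -0.69 ± 0.17, adjusted p = 0.0239), and the call was lost when any 1 Ler library or replicate 2 of the mutant was left out. Without both libraries that stood apart, 14 members were called, 5 higher and 9 lower, and 4.99% of all models. The summed endosperm markers lay at 114 to 155 CPM in asil1-1 asil2-2 and at 60.8 to 91.6 CPM in Ler, with FWA called higher, and the summed seed coat markers at 279 to 393 CPM against 189 to 251 CPM, with TT10 called higher. Neither pair of ranges overlapped. All 5 endosperm markers tested were higher, with a median of 0.79 log2 units. The seed coat rise was not uniform, since 5 of the 8 markers were higher, with a median of 0.14. The embryo marker PLT1 was called lower, 3 of the 12 embryo markers were higher and the median change over all 12 was -0.28 log2 units. The part of these markers was not tested.

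Against Col-0, none of the 92 members was called in asil1-1 asil2-2 by edgeR, while 2.28% of all tested models were. At an unadjusted p under 0.05 there were 6 members, or 6.52%, beside 14.5% of all models, and DESeq2 called 1 member, or 1.09%, beside 4.41%. The median log2 fold change of the members was -0.18, beside -0.02 for all models, and 23 of the 92 were higher. Without both libraries that stood apart, 3 members were called, with 5.29% of all models. ATMG01360, given above, and ATMG00160 were higher, the latter at 1121, 981 and 906 CPM against 757, 753 and 733 CPM (log2 fold change 0.45, adjusted p = 0.00546), and ATMG00300 was lower (-0.50, adjusted p = 0.0194). The seed coat markers lay at 279 to 393 CPM in this mutant and at 205 to 266 CPM in Col-0, with AT2G47670 called higher. The embryo marker PLT1 was called lower. Yet 6 of the 12 embryo markers were higher than in Col-0, and the median change over all 12 was -0.03 log2 units. The part of these markers was not tested. The comparisons with Col-0 and Ler share the same 3 mutant libraries and are not independent of each other.

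In the asil1-1 embryos most members lay a little higher than in Col-0. Of the 92, 81 had a positive log2 fold change, with a median of 0.26 beside -0.00 for all tested models. None was called by edgeR with all libraries, while 0.0328% of all models were, 12 members, or 13.0%, had an unadjusted p under 0.05 beside 2.48% of all models, and DESeq2 called 2 members, or 2.17%, beside 0.0821%. In 40 members, or 43.5%, all 3 asil1-1 libraries lay above all 3 Col-0 libraries, which held for 7.13% of all models, and no member lay below in the same way. With library sizes and scaling taken from the members alone, the median of the members became -0.05 by construction and that of all models -0.31, so the direction is that of the members relative to the rest of the transcriptome.

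With both libraries that stood apart left out, which again are in neither group compared, 6 members were called in asil1-1, all higher. Over all models 0.191% were then called, and 0.185% were called higher. They were ATMG00160, ATMG00570, ATMG00830, ATMG01320, ATMG00510 and ATMG00285. ATMG00570 lay at 254, 261 and 239 CPM in asil1-1 and at 178, 160 and 197 CPM in Col-0, a log2 fold change of 0.50 (adjusted p = 0.0261). ATMG01320, named as NADH dehydrogenase 2B, a subunit of the proton-pumping entry complex of the respiratory chain, lay at 272, 273 and 263 CPM against 218, 193 and 201 CPM (log2 fold change 0.40, adjusted p = 0.0374). ATMG00160 lay at 1021, 1064 and 1049 CPM against 757, 753 and 733 CPM (log2 fold change 0.48, adjusted p = 0.0155). In each of these 3 members every asil1-1 library lay above every Col-0 library. With all 21 libraries in the fit their adjusted p values were 0.564 for ATMG00570 and 1 for ATMG01320 and ATMG00160.

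Nuclear genes that serve mitochondrial RNA were described beside them. AT5G14580, the mitochondrial polynucleotide phosphorylase, which degrades and trims mitochondrial transcripts, was called higher in asil1-1, close to the threshold (log2 fold change 1.06 ± 0.19, adjusted p = 0.0492). Over all models the calls in asil1-1 fell from 6 to between 2 and 4 when any 1 library of either group was left out. No such value is given for AT5G14580. In asil2-1 its log2 fold change was -0.18 ± 0.19, in asil1-1 asil2-1 0.33 ± 0.19, in asil2-2 against Ler -0.46 ± 0.19 and in Ler against Col-0 0.28 ± 0.19, with adjusted p values of 1, 0.381, 1 and 0.59. In asil1-1 asil2-2 it was 0.65 ± 0.19 against Col-0 (adjusted p = 0.0745, and 0.00306 without both libraries that stood apart) and 0.38 ± 0.19 against Ler (adjusted p = 0.328). The RNA polymerases AT1G68990 of the mitochondria (listed as MGP3), AT5G15700 of both organelles and AT2G24120 of the plastids (SCA3) had log2 fold changes of 0.17, 0.29 and 0.08 in asil1-1, and none was called in any of the 7 comparisons. In asil1-1 asil2-1 those of the 3 polymerases were -0.25, -0.44 and -0.61, and in asil1-1 asil2-2 against Col-0 they were -0.14, -0.37 and -0.61. In asil2-1 they were -0.08, 0.11 and -0.16, in asil2-2 against Ler -0.23, 0.10 and -0.14, in asil1-1 asil2-2 against Ler -0.34, -0.57 and -0.53 and in Ler against Col-0 0.20, 0.20 and -0.09. Nuclear-encoded subunits were also tested. Of 9 genes of complex I, 7 of complex III and cytochrome c, 5 of complex IV and alternative oxidase and 7 of ATP synthase, none was called in any comparison, and their medians in asil1-1 lay between 0.05 and 0.08.

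The endosperm and seed coat markers in asil1-1 lay at 114 to 153 CPM and 264 to 330 CPM, against 92.03 to 115 CPM and 205 to 266 CPM in Col-0. None of them was called with all libraries, but without both libraries that stood apart, where 6 members were called, the seed coat markers AT3G50990 (adjusted p = 0.04998) and AT2G47670 (adjusted p = 0.0441) were called higher in asil1-1. Their log2 fold changes with all libraries were 2.07 and 2.85. The rise was not uniform, since only 5 of the 8 seed coat markers were higher, with a median of 0.37. Of the 5 endosperm markers tested, 3 were higher, with a median of 0.05. Plastid models held 11.4% to 11.9% of the counts in asil1-1 and 10.7% to 11.7% in Col-0. The part of either in the mitochondrial levels was not tested.

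In asil2-1 no mitochondrial model was called against Col-0 by edgeR, 0.0109% of all models were, no member had an unadjusted p under 0.05 beside 1.73% of all models, and DESeq2 called no member and 0.0274% of all models. No member was called without both libraries that stood apart either, and 9 members, or 9.78%, had an unadjusted p under 0.05, beside 6.61% of all models. The median log2 fold change was -0.07 beside 0.00 for all models, with 35 of the 92 higher. For ATMG01360 it was 0.02 ± 0.21 and for ATMG00090 0.04 ± 0.18. In asil2-2 against Ler the members were likewise uncalled, with 0.0712% of all models called, 1 member at an unadjusted p under 0.05 beside 2.58% of all models, and none by DESeq2 beside 0.131%. None was called without both libraries that stood apart, and 11 members, or 12.0%, had an unadjusted p under 0.05, beside 7.96% of all models. Their median was 0.02 beside 0.01, and 49 of the 92 were higher. The difference between the asil2-1 and the asil2-2 response was tested in the same fit and called for no member, and the lowest unadjusted p was 0.0569, for ATMG00750. It was again called for none without both libraries that stood apart, while 9 members, or 9.78%, had an unadjusted p under 0.05, beside 5.97% of all models. The lowest was 0.00172, for ATMG00240, with a difference of -1.29 ± 0.36 log2 units (adjusted p = 0.559).

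In asil1-1 asil2-1 no member was called by edgeR either, while 0.0219% of all models were, 25 members, or 27.2%, had an unadjusted p under 0.05 beside 16.1% of all models, and DESeq2 called 4 members, or 4.35%, and 1.49% of all models. The median log2 fold change of the members was 0.01, but it rested on the library that stood apart. Without both such libraries it was -0.25 beside 0.00 for all models, 15 of the 92 members were higher, and 1 was called with 0.142% of all models. That member, ATMG00300, lay at 58.5, 38.6 and 36.9 CPM in the replicates, against 68.2, 53.5 and 67.2 CPM in Col-0 (log2 fold change -0.73 without replicate 1, adjusted p = 0.0124). Of the members with adjusted p nearest the threshold, ATMG00570 lay at 111, 142 and 123 CPM, below every Col-0 library, with a log2 fold change of -0.51 ± 0.12 (adjusted p = 0.132). The summed endosperm markers lay at 121 to 170 CPM in asil1-1 asil2-1 and at 92.03 to 115 CPM in Col-0, all 5 tested ones had positive log2 fold changes, and ALE1 was called higher without both libraries that stood apart (adjusted p = 0.0249). The summed seed coat markers lay at 237 to 378 CPM against 205 to 266 CPM. The part of these tissues in the mitochondrial levels, or in the interaction described next, was not tested. In replicate 1 scarce members stood out, such as ATMG01290 at 130 CPM, against 5.53 to 15.8 CPM in the other 20 libraries.

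The asil1-1 difference was therefore set against that in asil2-1 embryos, as the interaction of both mutations over the 4 Columbia genotypes. With all libraries no member was called, with 0.0109% of all models, and 30 members, or 32.6%, had an unadjusted p under 0.05, beside 6.84% of all models. Without both libraries that stood apart, 8 members were called, with 0.109% of all models. In each of the 8 the level in asil1-1 asil2-1 lay below what the sum of the single differences gives, by 0.57 to 0.91 log2 units. ATMG00570 had the lowest adjusted p, with an interaction of -0.91 ± 0.14 (adjusted p = 0.00834) and log2 fold changes of 0.50 in asil1-1, -0.02 in asil2-1 and -0.43 in asil1-1 asil2-1. Over all 92 members the interaction in this fit was negative for 78, with a median of -0.41 beside -0.01 for all models. That count does not hold with all libraries, where scarce members such as ATMG00840, ATMG00740 and ATMG01260 went from negative to positive. The 8 called members stayed negative there, at -0.98 to -0.77. Only replicates 2 and 3 stand for asil1-1 asil2-1 in the fit without both libraries. The comparisons of the 3 Columbia mutants share the Col-0 libraries.

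**Figure D4:**
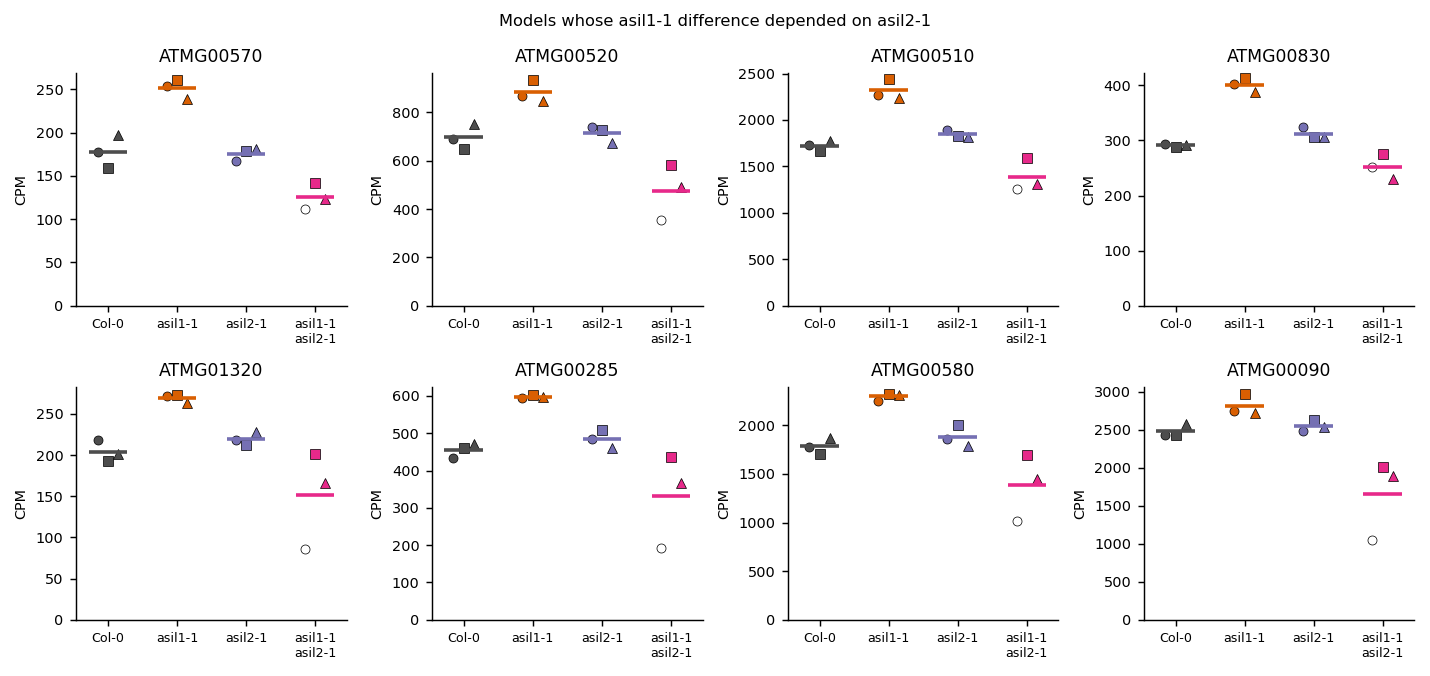
Level in CPM (y axes, each from 0) of the 8 members called for the interaction, in the 4 Columbia genotypes, with replicates 1, 2 and 3 as circles, squares and triangles and bars for means of 3 libraries. The open circle is the asil1-1 asil2-1 library that stood apart, which the bar includes and the call leaves out. The asil1-1 libraries are the highest and the asil1-1 asil2-1 libraries mostly the lowest, for ATMG00570 at 239 to 261 CPM and 111 to 142 CPM.

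**Figure D5:**
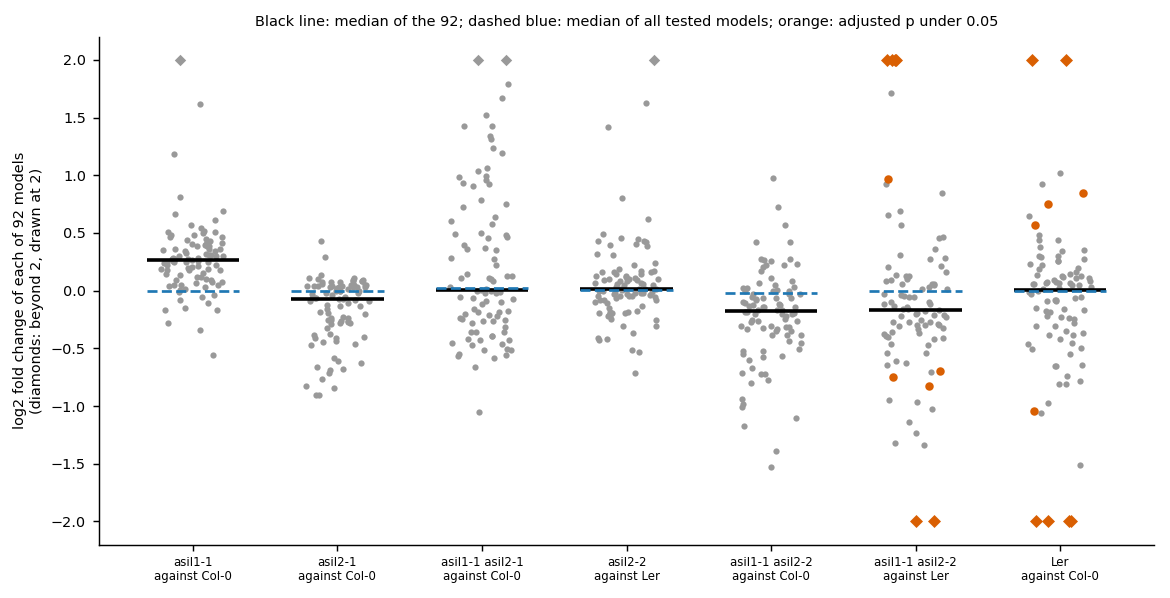
Log2 fold change (y axis) of each of the 92 members in the 7 comparisons (x axis), with the median of the members as a black line, the median of all tested models as a dashed line and called members in orange. Diamonds lie beyond 2 log2 units and are drawn at the edge. The median lies at 0.26 in asil1-1 and at -0.18 in asil1-1 asil2-2 against Col-0.

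Scarce members also had groups that did not overlap and differed by at least 1 log2 unit without passing the test. In asil1-1 this held for ATMG01050, with 27, 25 and 21 counts against 10, 5 and 7 in Col-0 (adjusted p = 1). In asil1-1 asil2-1 it held for ATMG00970, with 3, 19 and 24 counts against 23, 33 and 34 (adjusted p = 0.238). In asil1-1 asil2-2 against Col-0 it held for ATMG00750, with 13, 2 and 17 counts against 40, 36 and 23 (adjusted p = 0.132), for ATMG00470 (adjusted p = 0.383) and for ATMG01180 (adjusted p = 0.434). Against Ler it held for ATMG00320, ATMG01030, ATMG00880, ATMG00720 and ATMG00470, with adjusted p from 0.225 to 0.488. Between the wild types it held for ATMG00750, with 11, 14 and 25 counts in Ler (adjusted p = 0.285). At this depth none of these differences passed the test.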

How the data were processed

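Read counts per gene model were deposited as 1 table for each of 21 libraries. Per the submitters' processing notes, Bowtie 0.12.7, edgeR 3.0.8 and TAIR10 were used. No source used here gives the counting rule, strand or treatment of reads with several matches. Tables were joined with 0 for unlisted models. After filterByExpr (minimum count 10, minimum total 15) and TMM scaling, a one-way fit over the 7 genotypes was made with edgeR 4.0.16 in R 4.3.3. Contrasts were tested by quasi-likelihood with Benjamini-Hochberg adjustment over all models, called under 0.05. Standard errors are the log2 fold change over the square root of F, and log2 CPM uses a prior count of 2. Groups at 0 were compared with a floor of 3 counts over the group. Alternatives included RLE, DESeq2 1.42.0 and each library left out. Scripts were tested on simulated data.

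The members, lists and comparisons were chosen with earlier results of these data known. Named were the called members, those with the largest range of genotype means, those without overlap at a change of at least 1 log2 unit and the most abundant annotated members. The interaction members, ATMG00570 and ATMG00300 in the double mutant, ATMG01290 and the calls made without both libraries were named after their values were seen. Role lists were used only for members annotated through chromosome 2 genes. The labels of the replicates were not used as pairs in the main fit. A check of same-numbered replicates found low correlations, yet in most comparisons most libraries correlated best with their own number.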

Additional observations from a re-analysis of the deposited data

Results flagged for a closer look

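For 8 members the asil1-1 difference depended on whether asil2-1 was also present, by the interaction test of edgeR with both libraries that stood apart left out. The interaction, in log2 units, was -0.91 for ATMG00570, -0.78 for ATMG00830, -0.77 for ATMG00510, -0.76 for ATMG00520, -0.67 for ATMG00285, -0.66 for ATMG01320, -0.62 for ATMG00580 and -0.57 for ATMG00090. With all libraries the values for the same members ran from -0.98 to -0.77, with adjusted p from 0.0718 to 0.532, so the calls need those libraries left out. The cause was not tested.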

How the results depend on the processing

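Of 105 counts of called members under alternatives, 89 stayed within 1.5 times the count first reported. With only the groups compared in the fit there were 3 calls in asil1-1, 6 in asil1-1 asil2-2 against Ler and 23 in Ler against Col-0, or 3.41%, 6.9% and 26.1% of members tested, beside 0.141%, 1.19% and 12.8% of all models. DESeq2 called 2 in asil1-1, 4 in asil1-1 asil2-1 and 1 in asil1-1 asil2-2 against Col-0. Without both libraries that stood apart the counts were 6, 1 and 3 for these and 22 for Ler against Col-0. With 1 library left out they ranged from 0 to 3 in asil1-1 asil2-1, beside 0.0106% to 1.27% of all models. In asil1-1 asil2-2 they ranged from 0 to 1 against Col-0, beside 0.775% to 3.4%. Against Ler they ranged from 5 to 9, lowest without Ler replicate 1, beside 1.16% to 4.91%. Between the wild types they ranged from 7 to 9, beside 2.92% to 3.36%. They stayed at 0 in the other 3 comparisons, beside at most 0.0531%. With the replicate block the counts were 10 between the wild types and 11 in asil1-1 asil2-2 against Ler, beside 5.35% and 3.4%. Elsewhere they were 0, beside at most 2.69%. Counts against Ler and between the wild types include members that met the rule only where they were high. Same-numbered libraries correlated at -0.12 to 0.16 in their deviations, and in asil1-1 asil2-2 against Col-0 all 6 correlated best with their own number. So did 5 of 6 in asil1-1 asil2-1 against Col-0, in asil1-1 asil2-2 against Ler and in Ler against Col-0. In asil2-1 it was 4 of 6, and in asil1-1 and in asil2-2 against Ler 2 of 6, so a weak pairing is not excluded. Of 299 alternatives for the called members, 261 kept the call, 37 lost it and 1 reversed, ATMG00370 between the wild types at -0.21 once summed with its copy. Scaling from the members alone moved the median of all models by over 0.1 in 3 comparisons, to -0.31 in asil1-1, 0.11 in asil1-1 asil2-2 against Col-0 and 0.18 against Ler, and lost the wild-type calls of ATMG00090, ATMG00270 and ATMG01360. Leaving ATMG00030 out, added after the data were seen, left shares of 1.65% to 2.68% by genotype. The alternative without ribosomal RNA members was not run, as those loci are in no table used here. Limits are the scarce members, 3 libraries per genotype and reads shared with chromosome 2.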
